A study of Homo sapiens with 84 samples.

Results

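The comparison described here is the early transcriptional response of Kyse30 cells to the shed ectodomain of EpCAM (EpEX). Libraries were chosen by their titles: 3 libraries of cells exposed to EpEX-Fc for 6 h and 3 libraries of cells exposed to Fc for 6 h, 6 of the 84 libraries of the series, both groups carrying the replicate numbers 1, 3 and 4. Kyse30 is an established cell line from an esophageal squamous cell carcinoma. EpEX-Fc, at 50 nM, is EpEX joined to the Fc region of an immunoglobulin, and the control is the recombinant Fc region alone, whose dose was not given in the sources used here. All cells were starved of serum for a day and were then treated in serum-free medium. Other Kyse30 groups used below were untreated cells at 6 h (3 libraries), 1.8 nM EGF (EGFlow, 4 libraries) and 9 nM EGF (EGFhigh, 4 libraries) at 6 h, EGFhigh together with EpEX-Fc at 6 h (4 libraries), and EpEX-Fc and Fc at 72 h (3 libraries each). Nothing in the labels says that replicates came from separate cultures, so p-values measure the spread between these libraries, which may be technical, and the values belong to 1 cell line.

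EpCAM is a membrane glycoprotein of epithelial cells. Proteases of the ADAM family and γ-secretase cut it in steps, which releases EpEX outside the cell and an intracellular fragment inside. EGFR is the receptor tyrosine kinase for EGF and related ligands, and it signals through the RAS-ERK and PI3K-AKT routes. EpEX has been described as a ligand of EGFR, so the question behind the comparison is which genes respond to EpEX itself and how far they resemble those that respond to EGF.

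Expression was measured by 3′ RNA-seq, which reads 1 tag near the end of each transcript, so levels, given as CPM (a count scaled to a common library size), were not divided by gene length. The Fc libraries held 5774752, 4546701 and 6809146 counts in genes for replicates 1, 3 and 4. The EpEX libraries held 6349257, 5545102 and 1944948, so EpEX replicate 4 was the shallowest of the 6, and 3 counts corresponded to 1.56 CPM in it and to between 0.436 and 0.669 CPM in the other libraries. Mitochondrial transcripts took 6.37%, 9.31% and 11.9% of the counts in EpEX replicates 1, 3 and 4 and 7.31%, 12.3% and 12.7% in the Fc libraries of the same numbers. This share differed between replicate numbers and was lower with EpEX in all 3 numbered pairs, and its part in the results was not tested. Pearson's r of log2 CPM ran from 0.913 to 0.944 over all pairs of the 6 libraries. No 2 libraries agreed within sampling noise, with 8.45 as the smallest chi-square per degree of freedom over their pairs.

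Markers of squamous epithelium and of other cell types were examined beside the label of a squamous epithelial line. The 15 squamous epithelial markers summed to 2439, 3015 and 3273 CPM with Fc and to 2596, 3045 and 3517 CPM with EpEX, with the integrin subunit ITGB4 as the most abundant at a mean of 1005 CPM. The basal keratins KRT5 and KRT14 were nearly absent, at means of 2.16 and 1.15 CPM, and PKP1 stood at 0.342 CPM, while EPCAM itself was present at a mean of 250.5 CPM. The 8 fibroblast markers summed to between 16.0 and 23.6 CPM, with COL1A1 leading at 13.4 CPM and COL3A1 at 0 in all 6 libraries. The 7 blood cell markers summed to at most 3.34 CPM, led by LYZ, with PTPRC, HBB and HBA1 at 0. The 5 endothelial markers summed to between 1.04 and 5.82 CPM, led by CDH5, with PECAM1, VWF and KDR at 0.

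In edgeR 4 genes passed the test, all higher with EpEX: RRP9, AKAP12, SPIRE1 and ARID3B. They were the called genes among 15350 tested, 0.0261% of them, with an adjusted p of 0.05 or less and an absolute log2 fold change above 0.5 in edgeR's quasi-likelihood test. DESeq2 called 88 genes, these 4 among them, of which 52 were higher and 36 lower. All 4 also rose with EGFlow and with EGFhigh, in libraries that the EpEX comparison did not use.

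RRP9 (ENSG00000114767, GRCh38 chr3:51933430-51941941, minus strand) encodes a protein of the U3 small nucleolar ribonucleoprotein, which takes part in cutting the precursor of 18S ribosomal RNA. It stood at 17.4, 10.5 and 14.9 CPM in Fc replicates 1, 3 and 4 and at 49.9, 34.6 and 36.4 CPM in EpEX replicates 1, 3 and 4. The lowest EpEX library was above the highest Fc library by more than the whole range of the Fc group. The log2 fold change was 1.496 (SE 0.27), a 2.82-fold higher level, with an adjusted p of 0.0133 in edgeR. AKAP12 (ENSG00000131016, chr6:151239999-151358557, plus strand), a scaffold protein that binds protein kinase A and protein kinase C near the membrane, showed the largest fold of the 4. Its level was 13.3, 19.2 and 11.5 CPM with Fc and 47.9, 70.8 and 122.1 CPM with EpEX, so the groups did not overlap, while the EpEX libraries differed among themselves with replicate 4 the highest. The log2 fold change was 2.44 (SE 0.46), or 5.43-fold, with an adjusted p of 0.0133 in edgeR.

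SPIRE1 (ENSG00000134278, chr18:12446512-12658134, minus strand) encodes an actin nucleator that works with formins in vesicle transport. It was the most abundant of the 4, with 69.05, 49.5 and 62.7 CPM with Fc and 147.8, 121.5 and 128.3 CPM with EpEX. The EpEX libraries were close to each other and all were above the Fc libraries, with a log2 fold change of 1.13 (SE 0.21), a 2.19-fold higher level, and an adjusted p of 0.0133 in edgeR. ARID3B (ENSG00000179361, chr15:74541177-74598131, plus strand) encodes a DNA-binding protein of the AT-rich interaction domain family. It stood at 8.38, 10.7 and 10.6 CPM with Fc and at 44.2, 47.2 and 20.8 CPM with EpEX. Replicate 4 was well below the other EpEX libraries but still above every Fc library, and the log2 fold change was 1.94 (SE 0.35, 3.83-fold) with an adjusted p of 0.0133 in edgeR.

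**Figure D1:**
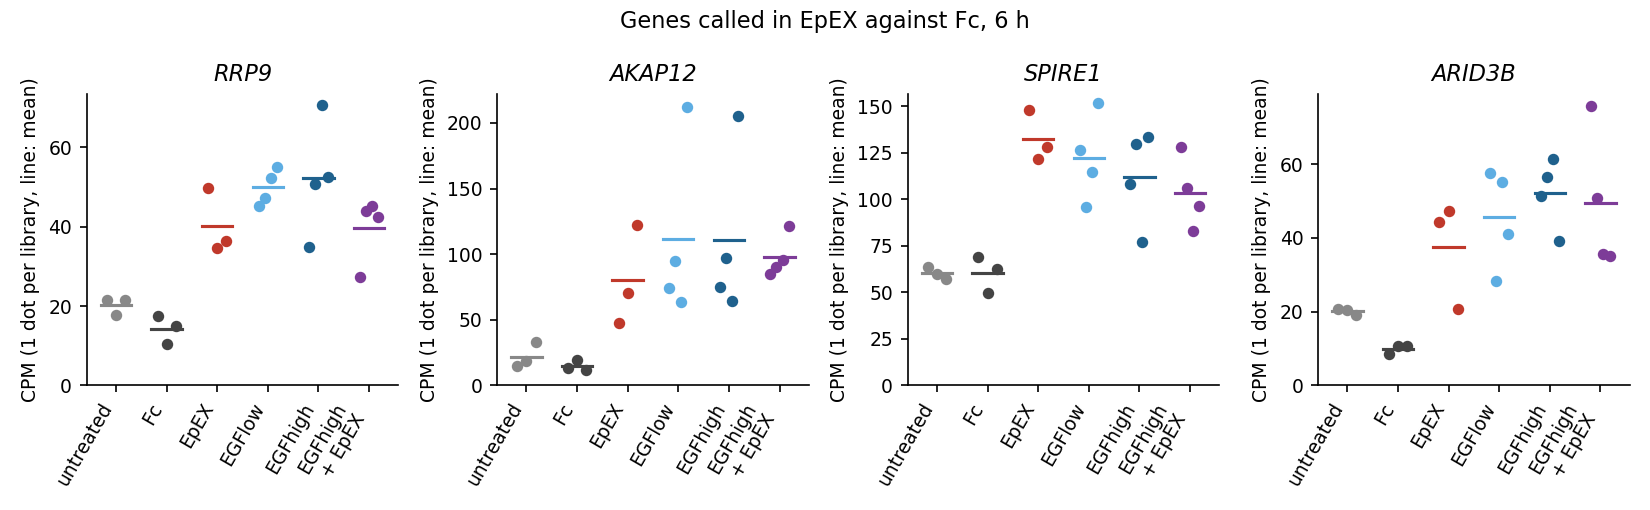
Level of RRP9, AKAP12, SPIRE1 and ARID3B in CPM (vertical axes, linear from 0) in the 6 h groups of Kyse30 cells, with 1 dot per library and a line at the group mean. Every EpEX dot lies above every Fc dot in each panel, and for RRP9 and ARID3B the Fc dots also lie below the untreated dots.

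The size of the change depended on the control for some of these genes. Untreated cells had 20.7, 20.4 and 19.1 CPM of ARID3B, above all 3 Fc libraries, and the log2 fold change of Fc over untreated was -1.02 (SE 0.34, unadjusted p = 0.00487, adjusted p = 1 in edgeR). Against untreated cells, ARID3B differed by 0.92 (SE 0.33, adjusted p = 0.31 in edgeR), and EpEX replicate 4 at 20.8 CPM was at the untreated level. RRP9 was at 21.6, 17.8 and 21.5 CPM in untreated cells, also above all 3 Fc libraries. Its log2 fold change of Fc over untreated was -0.50 (SE 0.27, unadjusted p = 0.0723 in edgeR). For EpEX over untreated the log2 fold change of RRP9 was 1.00 (SE 0.27) with an adjusted p of 0.126 in edgeR. For AKAP12 the corresponding value was 1.86 (SE 0.44, adjusted p = 0.0817 in edgeR). SPIRE1 passed the test with either control, with a log2 fold change of 1.14 (SE 0.21, adjusted p = 0.0321 in edgeR) over untreated cells, in which it stood at 63.8, 59.6 and 57.0 CPM. Untreated cells as control gave 2 called genes, of which SPIRE1 was 1. The numbers also paired the untreated and EpEX libraries. A fit of all 43 Kyse30 libraries with that number as a block, added after seeing the data, called 48 genes against untreated cells. AKAP12 (1.87, SE 0.34, adjusted p = 0.00538) and SPIRE1 (1.14, SE 0.19, adjusted p = 0.00197) rose in that fit, and RRP9 (adjusted p = 0.0824) and ARID3B (adjusted p = 0.210) did not pass it in edgeR. Across all genes Fc against untreated gave 0 called genes (0%) in edgeR, with 435 at an unadjusted p under 0.05, and 0 in DESeq2.

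The 4 genes were also compared with EGF. RRP9 had a mean of 50.02 ± 4.50 CPM (SD, n = 4) with EGFlow and 52.3 ± 14.6 CPM (SD, n = 4) with EGFhigh, next to 40.3 ± 8.37 CPM (SD, n = 3) with EpEX. AKAP12 had means of 111.3 ± 68.6 CPM with EGFlow and 110.4 ± 64.8 CPM with EGFhigh (SD, n = 4 each) next to 80.2 ± 38.0 CPM with EpEX (SD, n = 3), where replicate 4 stood apart at 212.4 CPM with EGFlow and 205.5 CPM with EGFhigh. The response to EpEX minus the response to EGFlow was 0.19 (SE 0.36) on the log2 scale for RRP9, 0.09 (SE 0.59) for AKAP12, 0.11 (SE 0.28) for SPIRE1 and 0.76 (SE 0.46) for ARID3B. None of these differences passed the test, which does not show that the responses were equal. The standard errors were larger than the differences for RRP9, AKAP12 and SPIRE1, and for ARID3B the difference was larger than its standard error. With EGFhigh and EpEX together, a group that shares the Fc control, the log2 fold changes over Fc were 1.47 for RRP9, 2.75 for AKAP12, 0.78 for SPIRE1 and 2.32 for ARID3B.

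Which genes were called rested on the fit more than their fold changes did. Same-numbered EpEX and Fc libraries deviated together. With the replicate number as a block over all 43 Kyse30 libraries, 48 genes were called, 0.313% of those tested, of which 38 rose and 10 fell. This block gives each number 1 effect shared by all groups, also those for which no pairing was taken. It is therefore not a test of the EpEX and Fc pairs alone. All 4 genes remained among them, with adjusted p-values between 0.00102 and 0.00735 in edgeR. In edgeR with no filter on low counts 105 genes were called, 68 higher and 37 lower, and with untreated and Fc cells together as control 101, 72 higher and 29 lower, each time with all 4 among them. In a fit of the 6 libraries alone, without the block, 9 genes were called, and AKAP12 was the one of the 4 among them. Without the block, leaving out any of the 3 Fc libraries or EpEX replicate 3 left 0 called genes, leaving out EpEX replicate 1 left 2 of which 1 was AKAP12, and leaving out EpEX replicate 4 left 10 that included the other 3. The log2 fold changes stayed between 1.86 and 2.71 for AKAP12, 1.00 and 1.66 for RRP9, 1.00 and 1.24 for SPIRE1, and 0.92 and 2.20 for ARID3B over all 14 alternatives.

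Beyond the called genes, those that differed without adjustment were about as often higher as lower. With no adjustment, 720 genes (4.69%) were higher and 731 (4.76%) were lower at a p under 0.05. The EpEX and Fc libraries did not overlap for 1043 genes (6.79%) that were higher and 984 (6.41%) that were lower with EpEX. With 3 libraries in each group some genes separate by chance alone, so these are not counts of changed genes. These shares are the background for every group of genes below.

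**Figure D2:**
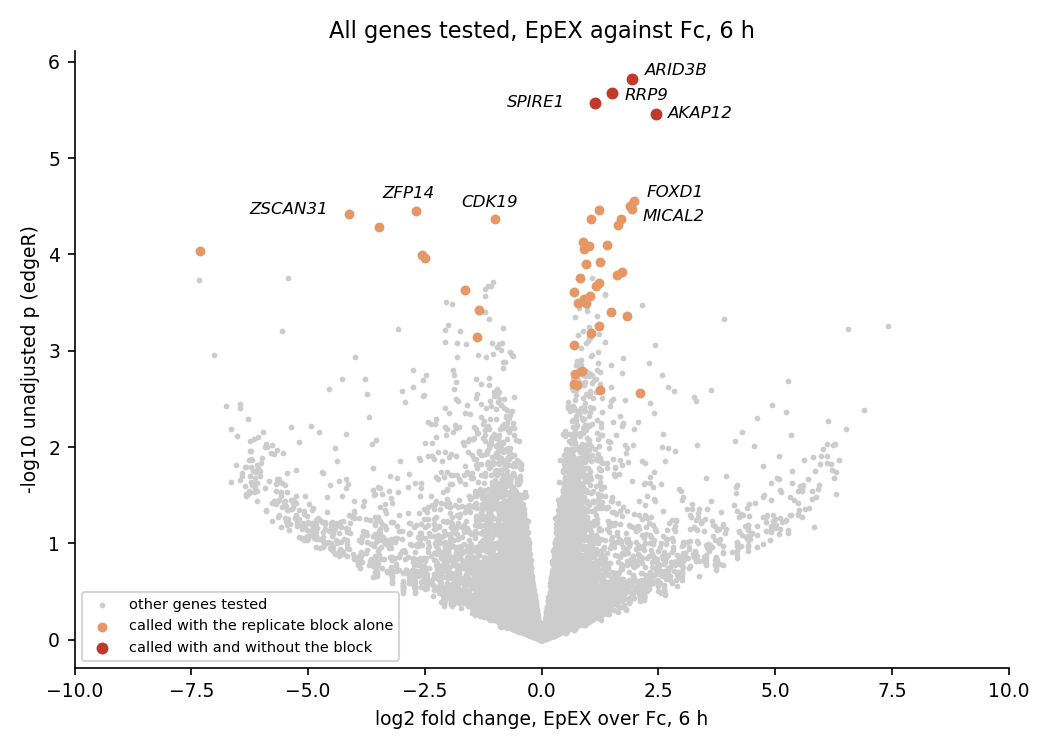
Log2 fold change of EpEX over Fc at 6 h (horizontal axis) against −log10 of the unadjusted p of edgeR's quasi-likelihood test (vertical axis) for 15350 genes. The 4 genes called with and without the replicate block stand at the top right, and the other 44 genes called with the block lie below them on both sides.

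The genes next in order, with separate EpEX and Fc libraries, missed the threshold in edgeR without the block, and most of them passed it with the block. DESeq2, run without a block, called each of those named here. FOXD1, a forkhead transcription factor, had 28.4, 31.2 and 28.97 CPM with Fc and 106.3, 156.4 and 83.1 CPM with EpEX. The Fc libraries were nearly equal and all EpEX libraries were well above them, with a log2 fold change of 1.97 (SE 0.42) and an adjusted p of 0.0512 without and 0.0150 with the block in edgeR. MICAL2, an oxidase that takes actin filaments apart and feeds the SRF transcription route, had 15.05, 9.81 and 5.91 CPM with Fc and 53.1, 29.6 and 31.7 CPM with EpEX. Its log2 fold change was 1.90 (SE 0.41), with adjusted p-values of 0.0512 without and 0.00181 with the block in edgeR. The unconventional myosin MYO10, which builds filopodia, the periplakin-binding protein KAZN, the sulfotransferase CHST3, the RAS association domain protein RASSF3 and the ribosome maturation factor TSR1 also belonged to this set. Their log2 fold changes were 1.06, 1.93, 1.63, 1.70 and 0.89, and each had adjusted p-values above 0.05 without and under 0.05 with the block in edgeR.

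The lower genes of the same kind were led by ZSCAN31 and ZFP14. Both encode zinc finger proteins and were low already with Fc. ZSCAN31 had 11.5, 8.92 and 16.1 CPM with Fc and 0.727, 0.709 and 0.520 CPM with EpEX, where it rested on 5, 4 and 1 counts. ZFP14 had 8.22, 14.3 and 9.61 CPM with Fc and 0.436, 2.66 and 2.08 CPM with EpEX, where it rested on 3, 15 and 4 counts. The groups were far apart for both, with log2 fold changes of -4.13 (SE 0.90) and -2.69 (SE 0.58) and adjusted p-values of 0.0144 and 0.00927 with the block in edgeR, against 0.0512 for both without it. CDK19, a kinase of the Mediator complex, had 45.8, 52.6 and 47.3 CPM with Fc and 23.1, 26.8 and 22.3 CPM with EpEX. Its log2 fold change was -1.005 (SE 0.22), and the adjusted p was 0.0512 without and 0.0204 with the block in edgeR. The divergent transcript AKAP1-DT (log2 fold change -2.51) and the MORN repeat gene MORN2 (-1.64) passed the test with the block. AKAP1-DT rested on 17, 14 and 3 counts with EpEX. SMIM14 (-1.04), LINC02967 (-1.14) and the pseudogene AHSA2P (-1.22) did not, with adjusted p-values between 0.0510 and 0.0543 with the block in edgeR.

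Transcripts of EpCAM and of the proteins that process it showed a median near 0. EPCAM had 292.8, 200.8 and 212.2 CPM with Fc and 308.9, 263.0 and 225.0 CPM with EpEX. The groups overlapped, and the log2 fold change was 0.18 (SE 0.23). Of the 14 genes of this list, which holds the sheddases ADAM10 and ADAM17, BACE1, the γ-secretase subunits and partners such as CLDN7 and CD9, 10 were higher, 2 of them at an unadjusted p under 0.05, and 4 were lower. The count of 2 became 0 without Fc replicate 1, EpEX replicate 3 or Fc replicate 4 and 1 without EpEX replicate 4 or with no filter, and 3 without Fc replicate 3. The median log2 fold change was 0.07, beside -0.01 over all genes tested, and ran from 0.02 without Fc replicate 3 to 0.21 with untreated cells as control. Among them was the tight junction protein CLDN7 (log2 fold change 0.60, SE 0.27).

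Among receptors and ligands of the EGF family, EGFR itself was the most abundant. It had 1912, 1549 and 1748 CPM with Fc and 2638, 2687 and 2347 CPM with EpEX. All EpEX libraries were above all Fc libraries, and the log2 fold change was 0.56 (SE 0.18), with an unadjusted p of 0.00390 and an adjusted p of 0.261 in edgeR. AREG, which encodes the EGFR ligand amphiregulin, was at 174.9, 209.3 and 310.2 CPM with Fc and 295.4, 384.8 and 624.0 CPM with EpEX. Its groups overlapped by 1 library while each numbered pair differed in the same direction, and the log2 fold change was 0.91 (SE 0.45, adjusted p = 0.528 in edgeR). ERBB3, the kinase-impaired receptor of neuregulins, was at 71.4, 67.5 and 69.9 CPM against 56.3, 41.1 and 30.1 CPM (log2 fold change -0.69, SE 0.31), and ERBB2 did not differ beyond its error (-0.26, SE 0.35). The ligand genes BTC and NRG4 were scarce, with log2 fold changes of 3.27 (SE 1.04) and -2.30 (SE 0.89), and BTC rested on 44, 7 and 5 counts with EpEX. Of the 11 tested members of 15 in this list, 5 were higher and 2 were lower at an unadjusted p under 0.05. The 5 became 3 in DESeq2 and without Fc replicate 1, EpEX replicate 3 or Fc replicate 4, and 1 with a mean of at least 5 CPM. The median was 0.56, and it was 0.28 with no filter on low counts and 0.29 with the 2 groups fitted alone.

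Genes that report immediate ERK activity had values on both sides of 0 after 6 h. In edgeR 0 were called with or without the block, 4 with no filter on low counts, 2 with untreated and Fc cells together as control and 1 each without EpEX replicate 1 and with the 2 groups fitted alone, and DESeq2 called 1. The list of 30 ERK feedback and immediate-early genes had 29 tested members, of which 15 were higher and 14 were lower, with 3 at an unadjusted p under 0.05 each way. The 3 higher became 1 without EpEX replicate 3 or Fc replicate 4. Its median of 0.01 changed sign in 5 of 14 alternatives, RLE size factors and DESeq2 among them. The early growth response factor EGR1 had 364.5, 507.3 and 540.1 CPM with Fc and 410.4, 95.0 and 133.5 CPM with EpEX. EpEX replicate 1 was within the Fc range, whereas replicates 3 and 4 of EpEX were far below every Fc library, and the log2 fold change was -1.14 (SE 0.34, adjusted p = 0.210 in edgeR). EGR2 was counted 4, 34 and 28 times with Fc and 0, 0 and 1 times with EpEX. DUSP6, the phosphatase that limits ERK and is a common reporter of its activity, was named after its values were seen: it had 124.4, 170.7 and 124.7 CPM with Fc and 166.5, 168.3 and 162.1 CPM with EpEX (log2 fold change 0.24, unadjusted p = 0.446 in edgeR). The 10 AP-1 factors had a median of -0.40, with 8 lower, and the median was -0.21 without EpEX replicate 1. Within that list ATF3, a stress-induced member, had 46.7, 116.4 and 120.6 CPM with Fc and 38.4, 13.3 and 42.1 CPM with EpEX (log2 fold change -1.62, SE 0.45). FOSL1 went the other way with 77.7, 37.0 and 49.5 CPM against 144.0, 114.9 and 136.1 CPM (1.26, SE 0.57), and neither passed the adjusted test in edgeR with the filter on low counts and Fc as control, while both passed it with no filter, and ATF3 also with untreated and Fc cells together as control.

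Genes of ribosome biogenesis, the assembly of ribosomal subunits in the nucleolus, were mostly higher. Of 134 genes, all tested, 120 were higher and 14 were lower with EpEX. At an unadjusted p under 0.05, 52 were higher, 38.8% of the list beside 4.69% of all genes, and 0 were lower. The median log2 fold change was 0.44, beside -0.01 for all genes, and the medians of the numbered pairs were 0.38 for replicate 1, 0.48 for replicate 3 and 0.52 for replicate 4. The count of 52 became 29 without Fc replicate 4, 32 without EpEX replicate 3 and 35 with untreated cells as control, and was between 45 and 56 in the other alternatives.

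The steps of assembly are given in turn, and the differences between their medians were not tested. The small subunit processome, the large particle that processes 18S precursor RNA, had 57 of 61 members higher and a median of 0.50. It held 5 genes that rose with the block, namely RRP9, TSR1, UTP14A, RRP12 and PNO1, the last 2 of which were named after their values were seen. UTP14A had 35.5, 52.2 and 44.2 CPM with Fc and 83.9, 94.0 and 86.3 CPM with EpEX, with a log2 fold change of 1.00 (SE 0.23) and an adjusted p of 0.0428 with the block in edgeR. The nucleolar helicase DDX21, the most abundant member, had 498.5, 457.4 and 331.2 CPM with Fc and 910.3, 968.4 and 710.2 CPM with EpEX. All EpEX libraries were above all Fc libraries for both genes, and the log2 fold change of DDX21 was 1.01 (SE 0.28, adjusted p = 0.0636 with the block in edgeR). Factors of the large subunit had 50 of 54 members higher, a median of 0.49 and 0 called genes with or without the block in edgeR, with 22 higher at an unadjusted p under 0.05, and 1 called gene each in DESeq2 and in edgeR with no filter or with untreated and Fc cells together as control. The count of 22 became 9 with untreated cells as control or without EpEX replicate 3 and 10 without Fc replicate 4. The list was led by RRP1 (log2 fold change 1.22, SE 0.33), PPAN (1.36, SE 0.38) and NOP16 (0.93, SE 0.29). RNA polymerase I and its partners had 13 of 19 higher and a median of 0.18, which was 0.11 with untreated and Fc cells together as control. In that step POLR1B, the second largest polymerase subunit, was at 21.1, 31.9 and 20.8 CPM with Fc and 36.2, 56.2 and 53.0 CPM with EpEX, while the abundant nucleolar proteins NPM1 and NCL had log2 fold changes of 0.07 (SE 0.16) and 0.24 (SE 0.24).

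Promoter windows of these genes were searched for the palindrome CACGTG, the E-box that MYC and related factors can bind. In RefSeq windows of GRCh38.p14 that run from 250 bases before to 50 bases after each annotated start, the letters CACGTG, which read the same on both strands, occurred in 44 of 131 windows of the 114 ribosome biogenesis genes with an entry (33.6%). They occurred in 9.11% of the 15683 windows of genes tested and in 7.26% of all 35116 windows. Lists whose members were mostly lower with EpEX held them too, with 6 of 35 windows of mitosis genes (17.1%) and 4 of 30 windows of cholesterol and fatty acid synthesis genes (13.3%). The 43 genes with the letters had a median log2 fold change of 0.57, all of them higher with EpEX. The 71 without had a median of 0.38 and 59 were higher. Of the 4 called genes, RRP9 held the letters in its window and AKAP12 in each of its 3 windows. The 2 windows of SPIRE1 did not hold these letters, and ARID3B had no window to search. The sequences below show the letters, in capitals, with their nearest bases in RRP9, AKAP12, UTP14A and DDX21, written 5′ to 3′ on the strand of the gene. A match describes the sequence and is not a measured binding site.
RRP9, chr3:51941892-51941921, minus strand: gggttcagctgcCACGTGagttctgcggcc
AKAP12, window at the first start, chr6:151239862-151239891, plus strand: ccctgctcttgcCACGTGaggtgcccaaat
AKAP12, window at the middle start, chr6:151325502-151325531, plus strand: tttaaggtgaagCACGTGaccccctgcttg
AKAP12, window at the last start, chr6:151341683-151341712, plus strand: tgcagtgagtagCACGTGcacccaagcggc
UTP14A, chrX:129905914-129905940, plus strand: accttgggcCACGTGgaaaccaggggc
DDX21, chr10:68956604-68956633, plus strand: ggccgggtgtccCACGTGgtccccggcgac

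Other motifs were counted in the same windows. The ETS letters CCGGAAGT, on either strand, were in 23.7% of the windows of ribosome biogenesis genes and in 7.26% of those of genes tested. The AP-1 letters TGACTCA were in 0.763% and 3.69%, and the CRE letters TGACGTCA were in 4.58% and 2.81%. For the hemidesmosome and laminin list, described next, the AP-1 letters were in 4 of 17 windows, or 23.5%. None of these 4 motifs contains another.

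Genes of the growth programme that usually accompanies ribosome assembly were examined next. The MYC network and D cyclins had 9 of 16 tested members of 17 higher, with a median of 0.21 that became -0.06 without EpEX replicate 4, 0.08 with untreated cells as control and 0.12 with no filter on low counts. CCND1, the D-type cyclin that starts passage through G1, had 360.1, 312.7 and 305.2 CPM with Fc and 418.4, 664.4 and 560.1 CPM with EpEX. The groups did not overlap, and the log2 fold change was 0.75 (SE 0.22, adjusted p = 0.185 without and 0.0533 with the block in edgeR). Its partner kinase CDK6 differed by 0.52 (SE 0.20). In nucleotide and one-carbon synthesis 20 of 25 genes were higher with a median of 0.19, which was 0.12 without EpEX replicate 3. MTHFD2, the mitochondrial folate enzyme, led with a log2 fold change of 1.21 (SE 0.47). In the unfolded protein and ATF4 response 16 of 17 tested members of 18 were higher, 5 of them at an unadjusted p under 0.05, with a median of 0.53. The count of 5 became 2 without Fc replicate 3 or EpEX replicate 3, 3 without EpEX replicate 4 or with untreated cells as control, 10 with the 2 groups fitted alone and 11 with no filter. The chaperone HSPA5 stood at 918.9, 869.5 and 891.7 CPM with Fc and 1253, 1230 and 1337 CPM with EpEX, which are close values within each group, and its log2 fold change was 0.51 (SE 0.19). The amino acid transporter SLC7A5 (1.06, SE 0.41) and the transcription factor XBP1 (0.84, SE 0.35) followed, while ATF4 was at 0.37 (SE 0.29).

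FOXO and quiescence-associated genes were lower. Of 20 genes, 16 were lower with EpEX, 5 at an unadjusted p under 0.05 (25% beside 4.76% of all genes), and the median was -0.63. The count of 5 became 3 without EpEX replicate 4 and 8 with no filter on low counts, and 0 members were called in DESeq2 and in edgeR, with or without the block, but 2, TXNIP and PIK3IP1, were called in edgeR with no filter. TXNIP, the thioredoxin-binding arrestin that limits glucose uptake, had 391.9, 423.7 and 516.9 CPM with Fc and 214.4, 53.2 and 94.0 CPM with EpEX. The groups were separate, with EpEX replicate 1 nearest to the controls, and the log2 fold change was -1.87 (SE 0.58, adjusted p = 0.227 in edgeR). PIK3IP1, an inhibitor of PI3K, was at 8.38, 11.4 and 25.1 CPM against 2.91, 1.60 and 4.16 CPM (-2.47, SE 0.74). KLHL24 followed with -1.02 (SE 0.36). The medians of the numbered pairs of this list were -0.17, -0.67 and -1.05, so replicate 1 showed the smallest difference here as well.

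Hemidesmosome, laminin-332 and related integrin genes, which anchor epithelial cells to the basement membrane, were higher. Of 15 genes 12 were higher, 7 of them at an unadjusted p under 0.05 (46.7% beside 4.69%), and the median was 0.57, or 0.34 with untreated cells as control. ITGA6 was at 742.4, 681.4 and 714.0 CPM against 1199, 1130 and 1112 CPM (0.69, SE 0.17, adjusted p = 0.0990 without and 0.0495 with the block in edgeR). ITGA2, the collagen receptor subunit, differed by 0.89 (SE 0.24). Plectin (PLEC), named after its values were seen, also rose with the block. ITGB4, the partner of ITGA6 in the hemidesmosome, did not share the difference: it had 864.6, 1017 and 1151 CPM with Fc and 748.8, 1058 and 1190 CPM with EpEX (-0.02, SE 0.30).

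Cytoskeletal genes were mixed. The list of actin, SRF and YAP targets had 17 of 25 members higher, 6 of them at an unadjusted p under 0.05 and 3 lower at that level. The median was 0.26, and it was 0.06 with untreated cells as control, 0.17 with untreated and Fc cells together and 0.15 without Fc replicate 1. AKAP12 and SPIRE1 belong to it, and were placed in it with their values known. ZYX, a focal adhesion protein, was at 46.7, 52.2 and 61.8 CPM with Fc and 83.6, 164.0 and 120.0 CPM with EpEX (1.19, SE 0.31, adjusted p = 0.0556 with the block in edgeR). Tropomyosin TPM4 (0.72, SE 0.21) rose with the block, and the actin gene ACTG1 was at 5369, 5450 and 6614 CPM against 7463, 7567 and 8776 CPM (0.45, SE 0.20). AKAP12 and ARID3B were the called members of their families, and of 19 tested members of 22 of the AKAP and ARID list 7 were higher and 12 were lower, with a median of -0.09 that ran from -0.25 without Fc replicate 1 to -0.03 without EpEX replicate 1 or 3. The large scaffold AKAP9 was lower by -0.59 (SE 0.24) and ARID4B by -0.63 (SE 0.21), whereas AKAP13 was higher by 0.63 (SE 0.25).

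**Figure D3:**
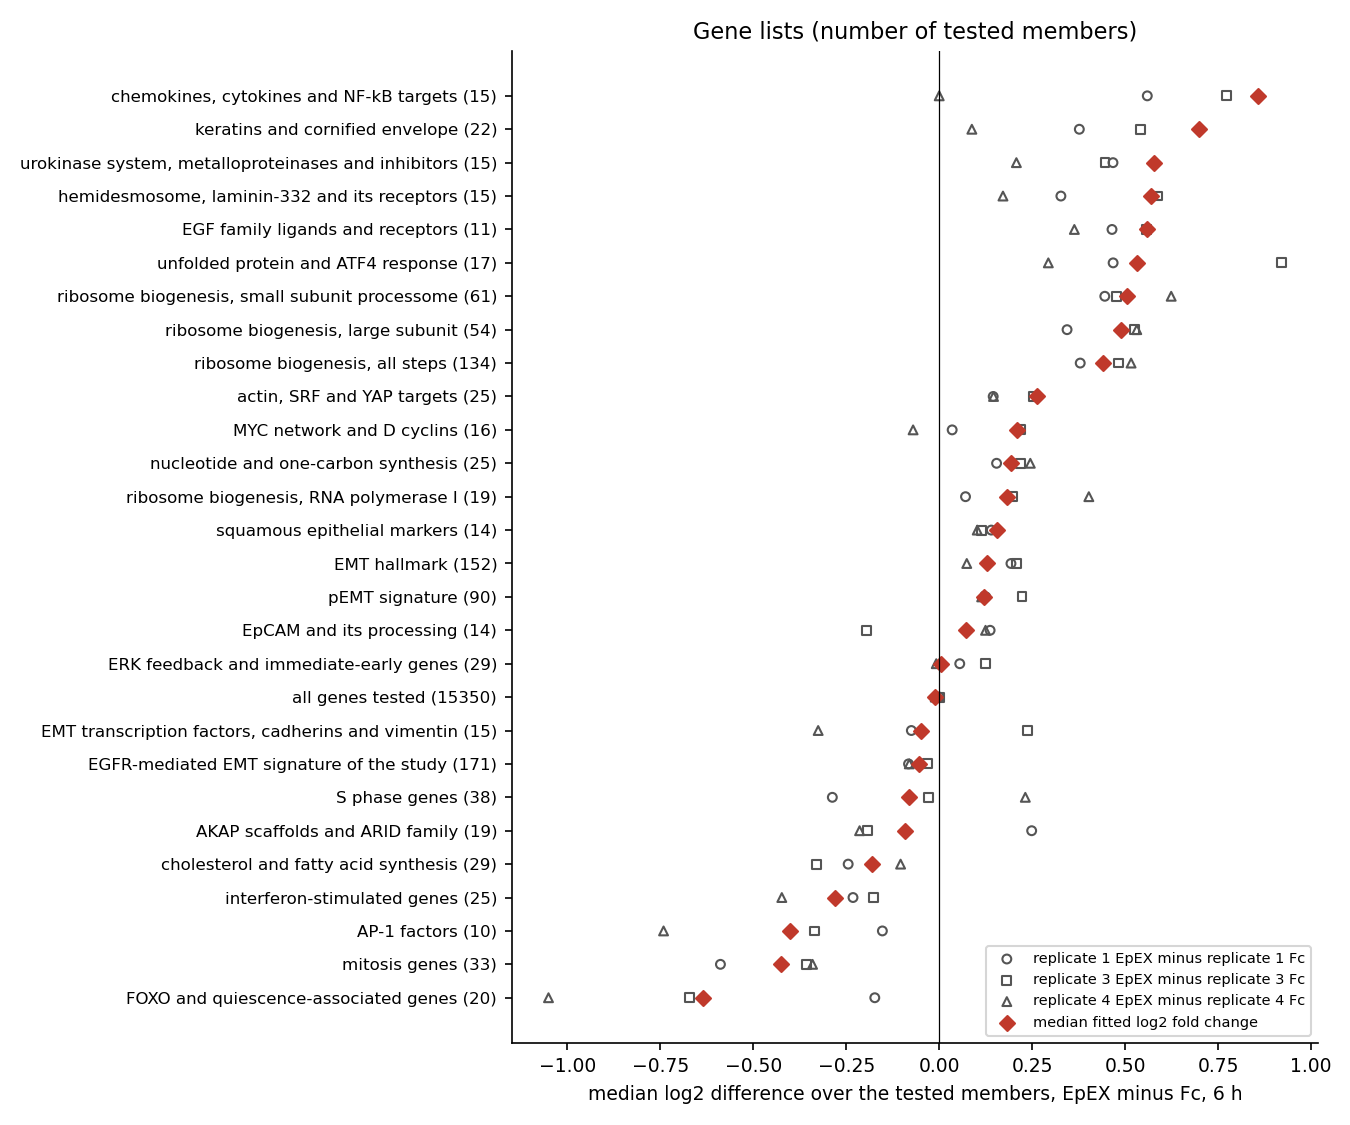
Median log2 difference between EpEX and Fc at 6 h (horizontal axis) over the tested members of each gene list and over all genes tested (vertical axis, number of tested members in parentheses). Open symbols are the differences of the numbered pairs and red diamonds the medians of the fitted log2 fold changes, with the small subunit, large subunit and combined ribosome biogenesis lists between 0.34 and 0.62 in every pair and the S phase genes on both sides of 0.

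Keratins and cornified envelope genes had 18 of 22 tested members of 26 higher, with a median of 0.70 and 4 at an unadjusted p under 0.05, or 10 with no filter. This median was 0.32 without EpEX replicate 1, 0.46 without EpEX replicate 3 or Fc replicate 1, 0.33 with no filter on low counts and 0.44 with untreated cells as control. KRT6A, a keratin of activated keratinocytes, was at 17.4, 9.58 and 28.7 CPM with Fc and 97.2, 66.9 and 78.5 CPM with EpEX. It rose with the block, with a log2 fold change of 2.11 (SE 0.66) and adjusted p-values of 0.233 without and 0.0400 with the block in edgeR. KRT16 differed by 1.67 (SE 0.56), while the abundant simple keratins KRT18 and KRT19 were at 0.15 (SE 0.26) and 0.09 (SE 0.25). The urokinase, metalloproteinase and inhibitor list had 11 of 15 tested members of 18 higher and a median of 0.58, which was 0.35 without Fc replicate 3, 0.27 with untreated cells as control and 0.24 with no filter. It was led by the plasminogen activator PLAT (1.72, SE 0.52) and the serpin SERPINB5 (0.93, SE 0.32). PLAU varied more between replicates than between groups, with 263.6, 107.9 and 52.2 CPM with Fc and 287.3, 183.5 and 210.4 CPM with EpEX. It was higher with EpEX in each numbered pair.

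Chemokine, cytokine and NF-κB target genes had 12 of 15 tested members of 26 higher, 2 of them at an unadjusted p under 0.05. The median was 0.86, with 0.00 in the replicate 4 pair. The filter ran over all Kyse30 groups, so scarce members could pass it through groups other than EpEX and Fc. With the 2 groups fitted alone 8 of 9 tested members were higher with a median of 0.74. With a mean of at least 5 CPM 7 of 8 were higher with a median of 0.59. With untreated cells as control the median was 0.23 and with untreated and Fc cells together 0.55, and it was 0.46 with no filter, 0.56 without EpEX replicate 3 and 1.41 without Fc replicate 4. The NF-κB subunit RELB was at 9.15, 13.4 and 12.7 CPM with Fc and 28.5, 41.0 and 19.2 CPM with EpEX (1.36, SE 0.34, adjusted p = 0.0990 in edgeR). TNFAIP3, the feedback inhibitor of the pathway, differed by 1.57 (SE 0.63), and NFKBIA, its other common reporter, by -0.23 (SE 0.31). Interferon-stimulated genes had 14 of 25 tested members of 26 lower, 4 at an unadjusted p under 0.05, with a median of -0.28. The count of 4 became 1 without Fc replicate 1, 2 without EpEX replicate 4 and 7 with no filter. Without EpEX replicates 1, 3 and 4 in turn this median was -0.42, -0.69 and -0.14. It was -0.74 with untreated cells as control, -0.62 with untreated and Fc cells together, -0.56 with a mean of at least 5 CPM, -0.55 with the 2 groups fitted alone and -0.16 with no filter. IFIT1 was at 23.6, 6.69 and 6.65 CPM with Fc and 4.22, 2.84 and 1.04 CPM with EpEX, with a log2 fold change of -2.06 (SE 0.72) that was called in edgeR with no filter only. Cholesterol and fatty acid synthesis had 22 of 29 members lower with a median of -0.18. With untreated cells as control 16 were lower and the median was -0.03, and the median was -0.11 with both controls together and -0.10 without Fc replicate 1.

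Cell cycle genes were split into S phase and mitosis. Of 38 S phase genes 18 were higher and 20 were lower, none at an unadjusted p under 0.05, with a median of -0.08 that ran from -0.27 without Fc replicate 4 to 0.11 without Fc replicate 1. Without EpEX replicate 3 or Fc replicate 4, 3 were lower at an unadjusted p under 0.05. Of 33 mitosis genes 30 were lower, 9 at an unadjusted p under 0.05 (27.3% beside 4.76%). The count of 9 became 4 without EpEX replicate 1, Fc replicate 3 or EpEX replicate 4 and 15 with the 2 groups fitted alone. The median was -0.43, with -0.59, -0.36 and -0.34 in the numbered pairs. HMMR, a spindle-associated hyaluronan receptor, was at 76.2, 85.8 and 46.0 CPM with Fc and 23.1, 33.2 and 22.9 CPM with EpEX. It fell with the block, with a log2 fold change of -1.38 (SE 0.38) and adjusted p-values of 0.142 without and 0.0428 with the block in edgeR. The phosphatase CDC25C (-0.92, SE 0.34) and the kinesin KIF2C (-0.68, SE 0.26) were lower without a call in edgeR, and TOP2A, the most abundant member, was at 876.8, 1299 and 736.1 CPM against 514.7, 817.6 and 591.3 CPM.

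Genes of epithelial-to-mesenchymal transition (EMT) were mixed. The list of EMT transcription factors, cadherins and vimentin had 7 of 15 tested members of 18 higher and 8 lower, and its median of -0.05 changed sign in 8 of 14 alternatives. GRHL2, a factor that maintains the epithelial state, was at 67.8, 63.3 and 70.1 CPM with Fc and 47.6, 34.8 and 40.5 CPM with EpEX (-0.71, SE 0.27). TWIST2 was higher by 0.95 (SE 0.36), and the epithelial splicing regulator ESRP1 was lower by -0.49 (SE 0.22), none of them called in edgeR. The EGFR-mediated EMT signature of 171 genes had 78 higher and 93 lower with a median of -0.06, and at an unadjusted p under 0.05 6 of its genes were higher and 13 lower. The 13 became 20 with the 2 groups fitted alone and between 6 and 8 without Fc replicate 1, EpEX replicate 1, Fc replicate 3 or EpEX replicate 4. The study chose these genes on libraries of this series as changed by EGFhigh at 72 h and by no other treatment or time, so genes it called with EpEX at 6 h were left out, and the low counts here are fixed by that choice and are no independent evidence. The partial EMT signature had 63 of 90 tested members of 99 higher with a median of 0.12, or 0.23 without Fc replicate 4, and its genes called with the block included ITGA6, ACTN1 and TPM4. The EMT hallmark had 93 of 152 tested members of 200 higher with a median of 0.13, between 0.05 with untreated cells as control and 0.24 without Fc replicate 1, and its genes called with the block included CD59 and TPM4. CD59, a surface inhibitor of complement, had 119.2, 144.0 and 105.2 CPM with Fc and 213.7, 224.3 and 216.7 CPM with EpEX (0.83, SE 0.20). Of the other genes that the study followed, CD44 differed by 0.42 (SE 0.25), FADD by 0.29 (SE 0.17), DDIT4 by 0.37 (SE 0.49), NCEH1 by 0.13 (SE 0.34) and TIMP1 by -0.07 (SE 0.24), all with adjusted p-values above 0.6 in edgeR. CD44 was the one of these 5 whose EpEX libraries (449.6, 475.6 and 531.5 CPM) were all above its Fc libraries (367.0, 315.8 and 406.5 CPM).

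The genes that EGF changed were chosen by EGF against untreated cells, a comparison that shares no library with EpEX against Fc. The filter, the scaling and the estimate of spread came from all Kyse30 libraries, those of EpEX and Fc among them. EGFlow changed 230 genes (1.5%) and EGFhigh 391 (2.55%) in edgeR. These counts depended on which libraries were fitted: leaving out untreated replicates 1, 3 and 4 in turn gave 76, 87 and 20 for EGFlow and 165, 179 and 113 for EGFhigh. Without EGFlow replicate 1, 3 or 4 the first was 82, 108 and 91, without EGFhigh replicate 2 or 3 the second was 179 and 202, and DESeq2 gave 423 and 701. In edgeR they were 417 and 636 with the replicate block, 399 and 581 with no filter on low counts, and 359 and 574 with the groups compared alone. The counts below are for the genes called with all libraries in edgeR, with the filter and without the block. Of the 125 genes that rose with EGFlow, 124 (99.2%) were higher with EpEX, 98 (78.4%) at an unadjusted p under 0.05 beside 4.69% of all genes, and for 93 (74.4%) the EpEX and Fc libraries did not overlap beside 6.79% of all genes. Of the 105 genes that fell with EGFlow, 98 (93.3%) were lower with EpEX, 52 (49.5%) at an unadjusted p under 0.05 beside 4.76%, and for 58 (55.2%) the libraries did not overlap beside 6.41%. With EGFhigh the counts were 203 of 206 higher (98.5%) and 177 of 185 lower (95.7%), with 151 (73.3%) and 92 (49.7%) at an unadjusted p under 0.05. All comparisons used 1 estimate of each gene's spread, which favours genes of low spread in each of them. In a fit of the 6 EpEX and Fc libraries alone, 96 of the 125 genes were still higher at an unadjusted p under 0.05. In the fit of all 43 Kyse30 libraries the count of 98 ran from 79 to 94 when each of the 6 libraries was left out in turn.

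**Figure D4:**
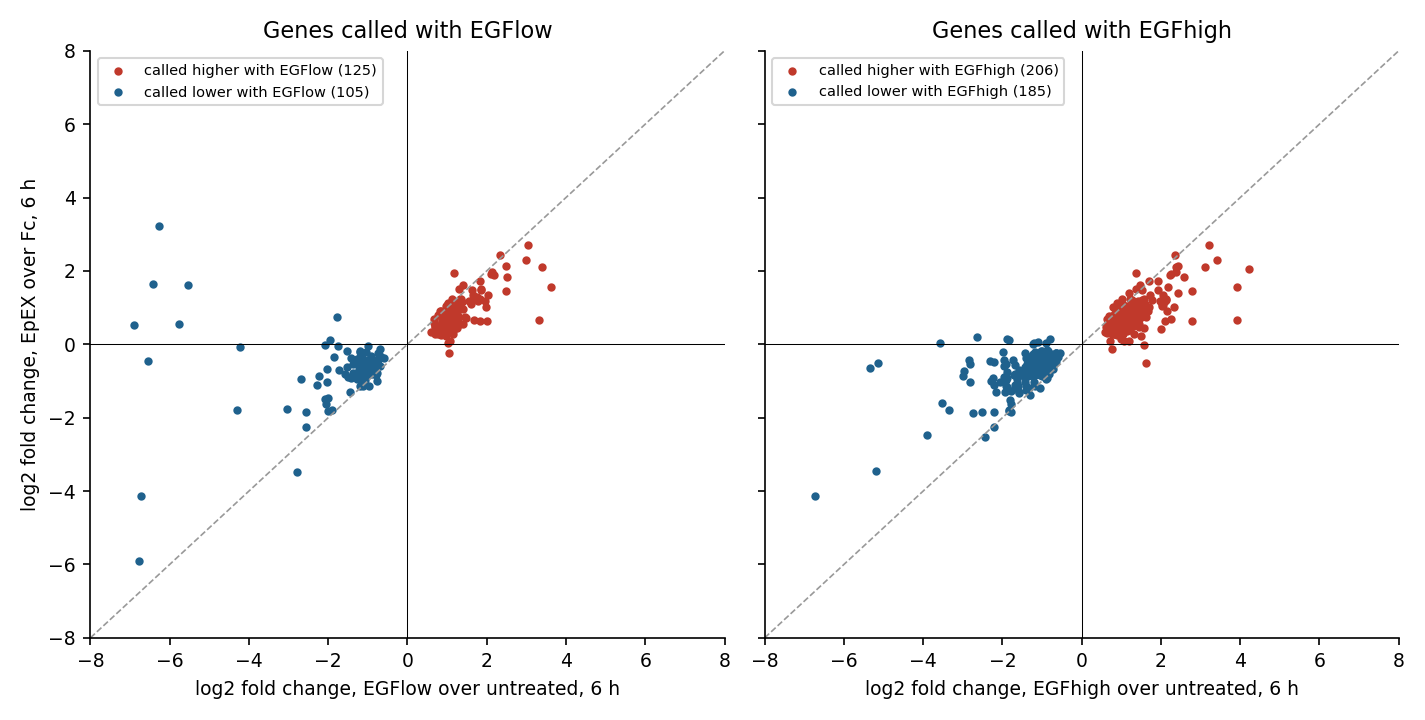
Log2 fold change of EpEX over Fc (vertical axis) against that of EGFlow (left) or EGFhigh (right) over untreated cells (horizontal axis) at 6 h, with 1 dot per gene called with that EGF dose and a dashed line where the values are equal. Of the 125 genes called higher with EGFlow 124 lie above 0, with a median of 0.87 on the EpEX axis and 1.14 on the EGFlow axis, and the dots left of -5 are genes with hardly any counts in the EGF libraries, where the fold is no bound.

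The medians of these genes were nearer to 0 with EpEX. The genes that rose with EGFlow had a median log2 fold change of 0.87 with EpEX and 1.14 with EGFlow, and those that fell had -0.62 and -1.19. For EGFhigh the medians were 0.76 with EpEX and 1.15 with EGFhigh for genes that rose, and -0.62 and -1.22 for genes that fell. Since these genes were chosen by their EGF values, which favours large EGF values, the gap is a description. The test of the difference between responses called 0 genes (0%) for EGFlow and 0 genes (0%) for EGFhigh in edgeR, with 468 and 493 at an unadjusted p under 0.05, and 0 each in DESeq2. Among the genes called with EGFlow, 6 of the 125 and 22 of the 105 had a difference at an unadjusted p under 0.05, all with the EpEX value on the side of 0. Some genes chosen by EpEX values showed the reverse, a choice that favours large EpEX values. ZFP14 was at -2.69 with EpEX and -0.56 with EGFlow, MORN2 at -1.64 and -0.18 and AKAP1-DT at -2.51 and -0.81. RASSF3 was at 1.70 and 0.56 and CHST3 at 1.63 and 0.56. Each had a difference at an unadjusted p under 0.05 in edgeR, unlike the other genes next in order. With the block 39 of the 48 genes called with EpEX were also called with EGFlow and 36 with EGFhigh, in the same direction.

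The genes that led the EGF comparisons had EpEX values of differing size. In edgeR without the block, with the filter on low counts and Fc as control, 0 of those named first here, ZYX, MICAL2, ANK3, KLHL24, GFOD1 and NBR1, were called in the EpEX comparison, and DESeq2 called ZYX, MICAL2 and ANK3. ZYX, among the first with EGFlow at a log2 fold change of 1.78, was at 1.19 with EpEX, and MICAL2 was at 2.18 and 1.90. ANK3, the ankyrin that ties membrane proteins to the cytoskeleton, was at 32.7, 36.8 and 34.7 CPM with Fc and 17.7, 23.9 and 16.6 CPM with EpEX. Its groups did not overlap, with log2 fold changes of -0.83 (SE 0.22) with EpEX and -1.32 with EGFlow. KLHL24 differed by -1.02 (SE 0.36) with EpEX beside -2.04 with EGFlow and -2.81 with EGFhigh. GFOD1 was at 1.02 (SE 0.34) beside 1.97 and 2.32, and the autophagy receptor NBR1 at -0.55 (SE 0.20) beside -1.23 with EGFhigh.

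EpEX against Fc at 72 h, with 3 libraries in each group, gave 0 called genes (0%) in edgeR, with 554 at an unadjusted p under 0.05, of which 325 were higher and 229 lower, and 2 in DESeq2. In edgeR it gave 13 with no filter on low counts and 3 without EpEX replicate 1 or 2. RRP9 had 17.0, 20.6 and 16.1 CPM with Fc and 20.45, 15.4 and 17.8 CPM with EpEX at this time, and its log2 fold change was -0.01 (SE 0.27). AKAP12 had 30.1, 21.8 and 11.3 CPM with Fc and 14.05, 21.5 and 30.0 CPM with EpEX (0.03, SE 0.44). SPIRE1 was at -0.26 (SE 0.21) and ARID3B at 0.20 (SE 0.34). The groups overlapped for RRP9, AKAP12, SPIRE1 and ARID3B.

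The test of the difference between the 72 h and 6 h responses called 0 genes (0%) in edgeR, with 972 at an unadjusted p under 0.05, and 1 in DESeq2. In edgeR it called 18 with no filter on low counts and 3, all with a negative difference, with the replicate number as a block. No pairing was taken for this comparison, since not every same-numbered pair correlated above 0.1. For SPIRE1 the difference, 72 h minus 6 h, was -1.39 (SE 0.29, adjusted p = 0.40 in edgeR), for RRP9 -1.50 (SE 0.38, adjusted p = 0.60), for AKAP12 -2.42 (SE 0.63, adjusted p = 0.60) and for ARID3B -1.74 (SE 0.48, adjusted p = 0.60). With the block AKAP12 was at -2.62 (SE 0.48) and SPIRE1 at -1.46 (SE 0.27), each with an adjusted p of 0.0234 in edgeR. RRP9 (adjusted p = 0.371) and ARID3B (adjusted p = 0.462) did not pass the test with the block in edgeR. RRP9, AKAP12, SPIRE1 and ARID3B were called for their value at 6 h, which favours a smaller value at any other time. The 125 genes that rose with EGFlow at 6 h, chosen by EGFlow against untreated cells, had a median of 0.11 with EpEX at 72 h beside 0.87 at 6 h. Of these, 79 were higher at 72 h, 7 of them at an unadjusted p under 0.05. The 105 that fell had -0.10 beside -0.62. The ribosome biogenesis list had a median of 0.03 at 72 h with 3 members higher and 0 lower at an unadjusted p under 0.05.

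**Figure D5:**
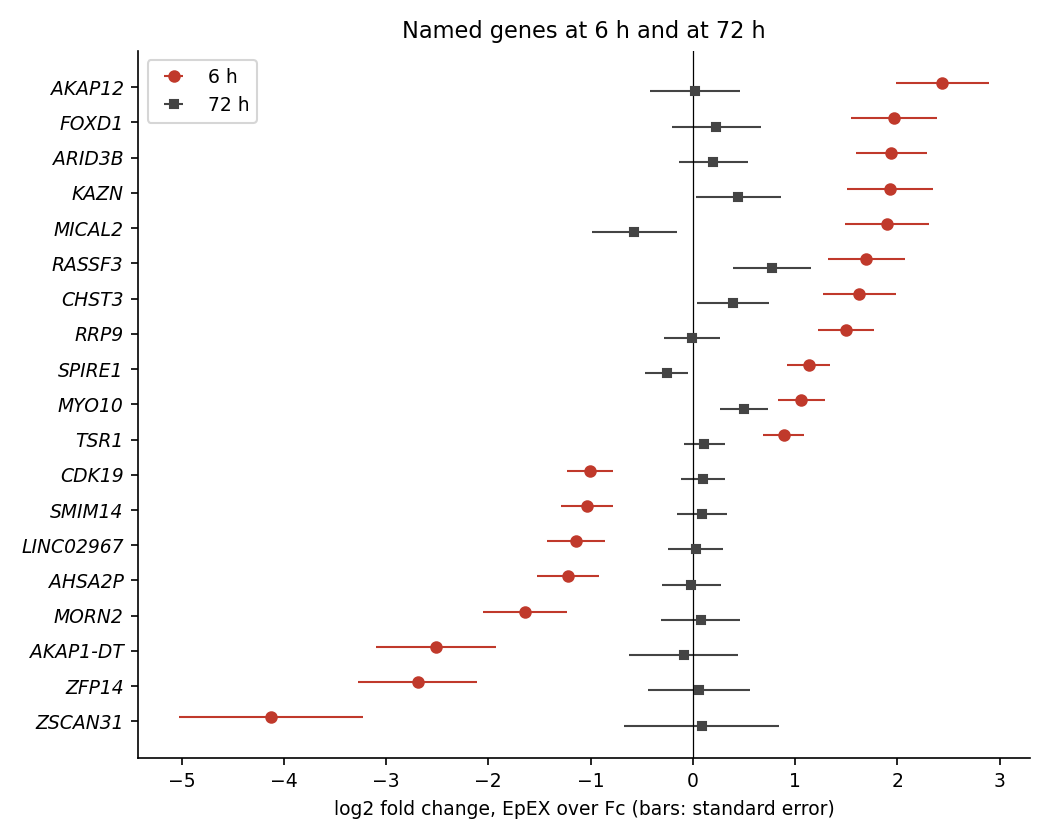
Log2 fold change of EpEX over Fc with its standard error (horizontal axis) at 6 h (red circles) and at 72 h (grey squares) for the 4 called genes and genes next in order (vertical axis), 7 higher and 8 lower. At 72 h the values of the 4 called genes lie between -0.26 and 0.20, and RASSF3 has the highest value at 0.77.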

How the data were processed

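Per the labels, total RNA was sequenced with a 3′ mRNA-seq kit, and the deposited files hold whole-number counts per gene that the authors made with STAR and HTSeq on GRCh38 (hg38) according to the submitters' processing notes, with versions, annotation release, strand setting and use of molecular identifiers not given in the sources used here. Each file had 58395 gene rows, of which 58275 were given a symbol; rows of reads not assigned to a gene were left out, and 55.0% to 62.0% of reads in the 6 libraries were assigned. The 43 Kyse30 libraries were fitted together in edgeR 4.0.16 (R 4.3.3) with TMM factors, genes kept by filterByExpr (minimum count 10, total 15) and quasi-likelihood tests with Benjamini-Hochberg adjustment; genes with adjusted p up to 0.05 whose log2 fold change exceeded 0.5 in size were called. CPM used TMM-scaled library sizes. FaDu libraries were not used.

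Replicate numbers came from the titles. Deviations from group means of same-numbered EpEX and Fc libraries correlated at 0.129, 0.117 and 0.116 and those of different numbers between -0.083 and -0.025, so the numbers were taken as pairs. Alternatives were DESeq2 1.42.0, RLE factors, other filters, only the groups compared, a replicate block over all 43 Kyse30 libraries, other controls and leaving out each library. A single estimate of spread served all groups. Genes were named as follows: all called genes, the 8 higher and 8 lower genes next by p with at least 5 CPM and no overlap, the 3 members of each list with the smallest p and the 2 most abundant, leading genes of other comparisons, markers and 11 genes of interest. The libraries, lists and rule were chosen with earlier results of these data known. Columns of per-sample values not used: 0. Symbols and coordinates came from GENCODE 29, promoter windows from RefSeq. Some genes that the rule names are not reported here.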

Additional observations from a re-analysis of the deposited data

Results flagged for a closer look

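Among 60 groups of 4 libraries, 3 EGF-treated groups for each of the 4 called genes and the 16 genes next in order, 6 had 1 library whose gap to the nearest other library exceeded 0.829 of the whole range. Chance alone gives about 1 in 20 such groups, and the EpEX and Fc groups, with 3 libraries each, were not examined this way. FOXD1 was flagged in both EGF groups: with EGFlow replicate 2 had 48.7 CPM beside 150.5 to 163.8 CPM (ratio 0.884), and with EGFhigh replicate 1 had 185.9 CPM beside 141.4 to 145.7 CPM (ratio 0.903). LINC02967 had 32.3 CPM in EGFlow replicate 2 beside 18.1 to 18.7 CPM (ratio 0.955). TSR1 had 130.3 CPM in EGFlow replicate 4 beside 160.6 to 164.9 CPM (ratio 0.876). KAZN had 27.2 CPM in EGFhigh replicate 1 beside 42.5 to 44.7 CPM (ratio 0.875). RRP9 had 27.3 CPM in replicate 1 of EGFhigh with EpEX beside 42.6 to 45.2 CPM (ratio 0.852). The cause was not tested.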

How the results depend on the processing

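For EpEX against Fc at 6 h the 4 genes became 88 (36 of them lower) in DESeq2, 105 with no filter on low counts, 17 with a mean of at least 5 CPM, 9 with the groups compared alone (1 of the 4 among them), 2 with untreated cells as control and 101 with untreated and Fc cells together as control, and 48 with the replicate block; without 1 library the count ran from 0 to 10. The cause was not tested. With RLE factors it stayed at 4. EGFlow against untreated went from 230 to 423 in DESeq2, 399 with no filter, 417 with the replicate block, 359 with the groups compared alone, and 20 (without untreated replicate 4) to 268 without 1 library. EGFhigh against untreated went from 391 to 701 in DESeq2, 636 with the replicate block and 113 (without untreated replicate 4) to 327 without 1 library. EpEX against Fc at 72 h went from 0 to 2 in DESeq2, 13 with no filter and up to 3 without 1 library (EpEX replicate 1 or 2). The change from 6 h to 72 h went from 0 to 1 in DESeq2, 18 with no filter and 3 with the replicate block (AKAP12 and SPIRE1 at an adjusted p of 0.0234 and MICAL2 at 0.0238 in edgeR), Fc against untreated to 1 and the EpEX response minus the EGFhigh response to 2 with no filter. No pairing was taken for the EGF, 72 h and difference comparisons, where not every same-numbered pair correlated above 0.1. With the block EpEX against untreated went from 2 to 48, EpEX against untreated and Fc together from 101 to 178 and EGFhigh with EpEX against Fc from 694 to 1091. Chosen after the data were seen, the counts of EGF-changed genes that followed EpEX were recomputed: for genes raised by EGFlow they ran from 79 to 94 and for genes lowered by it from 40 to 53 without 1 library, and for EGFhigh from 104 to 132 and from 67 to 84. Of 27 list medians 5 changed sign in at least 1 alternative: the ERK, MYC, S phase, squamous marker and EMT factor lists. At 1944948 counts in EpEX replicate 4, genes under 1.56 CPM rest on fewer than 3 counts in it.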
